A study of Caenorhabditis elegans with 2 samples.

Results

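The 10 genes were grouped under the quiescence and division of the blast cells of the first larval stage (L1) of Caenorhabditis elegans. They are cki-1, cki-2, cyd-1, cdk-4, cye-1, cdk-2, cya-1, cdc-25.1, lin-35 and efl-1. They were taken as a list by name, and all 10 were found among the 19973 protein-coding genes of the annotation. For each gene, every summit of NHR-85-GFP occupancy in the gene body or within 5000 bp upstream of it was listed. NHR-85 is a nuclear hormone receptor related to mammalian Rev-Erb, a transcriptional repressor of the circadian clock. Chromatin immunoprecipitation with an anti-GFP antibody, followed by sequencing (ChIP-seq), was done on whole hermaphrodites of strain OP539, with the genotype unc-119(tm4063) III; wgIs539. These worms carry a stably expressed transgene that fuses GFP and FLAG to the C-terminus of NHR-85, and the labels do not say whether the endogenous nhr-85 was intact or which promoter drives the fusion. Larvae were starved after bleaching to synchronize them and were collected 6 h after synchronization. The labels do not mention feeding during that time. There was 1 group with 2 biological replicates, both of this 1 strain, and no other condition. No untagged strain or other GFP fusion was analysed here, so sites that any GFP precipitation would give cannot be told apart from sites of NHR-85.

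Larvae that hatch without food stop development, and their blast cells rest in the G1 phase until feeding. The cyclin-dependent kinase inhibitors hold cells in this state, cyclin D with CDK-4 and cyclin E with CDK-2 drive entry into S phase, and the retinoblastoma protein with E2F represses S phase genes until the kinases inactivate it. In starved larvae the FOXO factor DAF-16 is needed for cki-1 expression in these cells. The lists give sites on DNA from whole animals. They do not show in which cells a site was occupied or whether a gene was expressed, and the labelled stage could thus not be checked against marker genes.

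Sequences at 6 of the members' summits are given first, to show the DNA under them. The sites of cki-1, cyd-1 and efl-1 passed the authors' irreproducible discovery rate (IDR) threshold. The cdk-4 site did not, and it is the strongest member site outside the IDR-thresholded list. The authors made that list from the peaks of each replicate and of both pooled. The cdk-4 window is in none of the motif counts, and the counted windows of cye-1 and lin-35 are not printed here. Each is the 101 bp centred on a summit, read 5′ to 3′ on the plus strand of ce11, from the RefSeq copy of the assembly. Capitals mark a match, on either strand, to one of the 4 motifs whose letters and counts are given further on. The sites are chrII:7806992-7807092, chrII:7808306-7808406 and chrII:7809230-7809330 upstream of cki-1, chrII:12991705-12991805 in an intron of cyd-1, chrV:16965801-16965901 upstream of efl-1 and chrX:13519115-13519215 upstream of cdk-4. The strongest cyd-1 site lies in untranslated sequence and is described by its position only.
cki-1, 4198 bp upstream: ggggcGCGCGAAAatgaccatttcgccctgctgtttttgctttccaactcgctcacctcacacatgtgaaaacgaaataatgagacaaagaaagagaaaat
cki-1, 2884 bp upstream: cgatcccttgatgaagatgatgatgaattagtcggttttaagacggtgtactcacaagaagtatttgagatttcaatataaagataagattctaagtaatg
cki-1, 1960 bp upstream: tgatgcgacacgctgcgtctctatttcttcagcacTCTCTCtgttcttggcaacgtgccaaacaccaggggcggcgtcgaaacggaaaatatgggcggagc
cyd-1, 11164 bp downstream: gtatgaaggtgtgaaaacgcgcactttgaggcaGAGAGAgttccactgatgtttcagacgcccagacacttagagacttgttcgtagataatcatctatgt
efl-1, 176 bp upstream: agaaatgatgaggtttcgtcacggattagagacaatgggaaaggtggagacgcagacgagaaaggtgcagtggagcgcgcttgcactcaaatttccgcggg
cdk-4, 254 bp upstream: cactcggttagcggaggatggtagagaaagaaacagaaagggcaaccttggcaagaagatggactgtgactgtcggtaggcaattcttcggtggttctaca

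The first question was which of the genes had a site in the deposited IDR-thresholded list. This list had 2404 distinct intervals, with signals in the peak caller's units from 97.2 to 2228 (median 162). Each member site had the same rank in it as in the list of both replicates pooled. A gene absent from it could still have peaks in both replicates, as cdk-4 did. A summit of this list was found for 5 of the 10 genes, namely cki-1, cyd-1, cye-1, lin-35 and efl-1. Of all protein-coding genes, 16.9% had such a summit. The 5 genes held 8 summits, with 3 at cki-1, 2 at cyd-1 and 1 at each of cye-1, lin-35 and efl-1. The other 5 genes, cki-2, cdk-4, cdk-2, cya-1 and cdc-25.1, had none. In the pooled list, which has 8389 intervals and reaches down to a signal of 40.6, 8 of the 10 genes had 20 summits, against 40.9% of all protein-coding genes with at least 1. The replicate 1 list (8092 intervals) had 20 summits at the same 8 genes, against 41.1% of all genes. The replicate 2 list (13289 intervals) had 30 summits at all 10 genes, against 54.4% of all genes. The members were chosen with earlier results of these data known, so these counts are descriptions and were not tested.

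**Figure D1:**
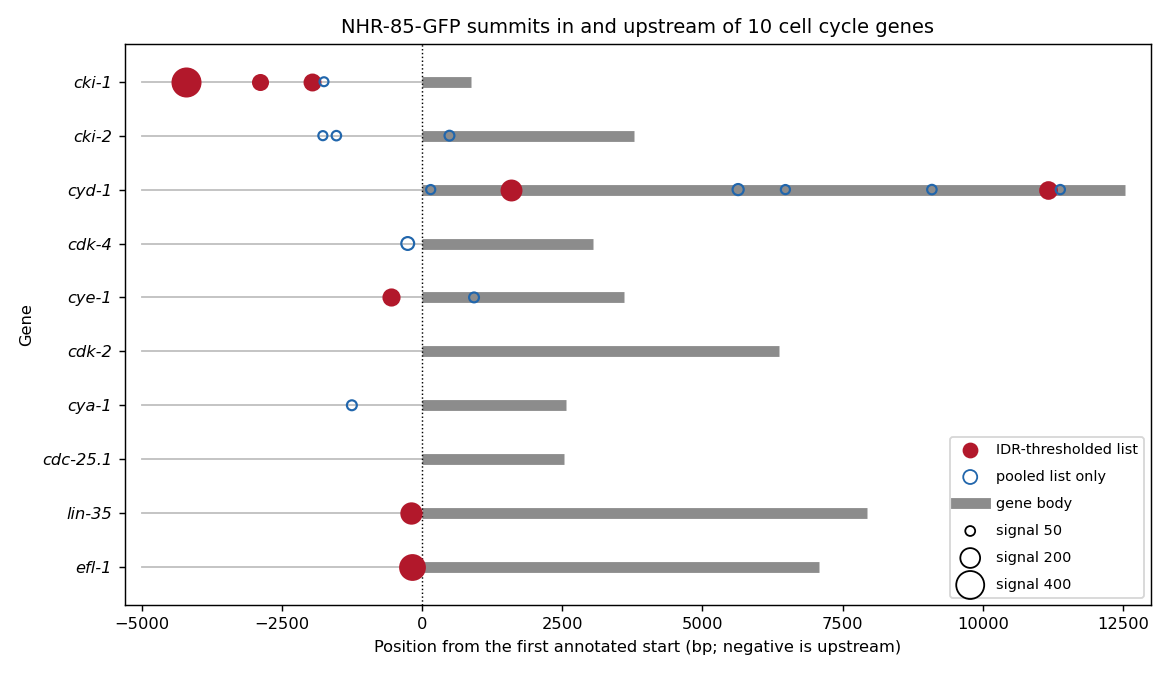
Positions of the summits of the pooled and IDR-thresholded ce11 lists in 10 cell cycle genes, in bp from the first annotated start (negative is upstream). Thick grey bars are gene bodies, thin lines the 5000 bp upstream, and circle area is the signal in the peak caller's units; the 8 filled circles are IDR-thresholded sites, with 3 upstream of cki-1 and 2 inside cyd-1, while cdk-2 and cdc-25.1 have no circle.

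With all protein-coding genes sorted by window length into 4 bins, the share with an IDR-thresholded summit was 14.9% in the shortest bin (up to 6214 bp), 12.6% in the next (6215 to 7026 bp), 16.7% in the one after it (7027 to 8632 bp) and 23.3% in the longest (8633 bp or more). The window of cki-1, at 5866 bp, was in the shortest bin. The windows of cki-2, cyd-1, cdk-2, lin-35 and efl-1 were in the longest, and 3 of these 5 genes had a summit. In the bin from 7027 to 8632 bp, cye-1 had a summit, and cdk-4, cya-1 and cdc-25.1 had none. When the upstream part was ended at the nearest neighbouring protein-coding gene, the same 5 members and 8 summits were found, against 11.1% of all genes.

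cki-1 (chromosome II, 7811240 to 7812105, plus strand, 1 annotated start) encodes a cyclin-dependent kinase inhibitor of the CIP/KIP family, required for the cell cycle arrest of blast cells in starved L1 larvae and for later exit from the cycle. All 3 of its IDR-thresholded sites lay far upstream, at 4198, 2884 and 1960 bp, and none lay within 1000 bp of the start. The strongest of the 8 sites at any member was the most distant, at II, 7806921 to 7807115, with a pooled signal of 397 (rank 225 of 2404). Its signal was 191 in replicate 1 (rank 259) and 209 in replicate 2 (rank 194). The interval was 195 bp wide, where the usual width in this list was 430 bp and 13.9% of intervals were narrower.

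The other cki-1 sites were weaker. The site 2884 bp upstream (II, 7808141 to 7808570) had a pooled signal of 113, with 77.7 in replicate 1 and 41.3 in replicate 2. The site 1960 bp upstream (II, 7809065 to 7809494) had a pooled signal of 127, with 71.1 in replicate 1 and 60.8 in replicate 2. The deposited −log10 q-values of these sites were 3.51 for the most distant, 2.75 and 2.83, and the other 5 member sites had 3.51. No other protein-coding gene had a start nearer to any of the 3 summits than cki-1. Of all IDR-thresholded summits, 7.28% were at least as far from the nearest protein-coding start as the 4198 bp site, and the median distance was 662.5 bp. Having 3 or more such summits was rare, at 0.891% of protein-coding genes.

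Non-coding RNA genes of unnamed function are annotated in the same stretch. The summit 2884 bp upstream lay in T05A6.12, 155 bp from its start, and the one 1960 bp upstream lay in T05A6.15, 77 bp from its start. The most distant summit was 666 bp from the start of T05A6.10. By the starts of all gene types, all 3 sites were thus classed as promoter, and by protein-coding starts alone as intergenic. The pooled list also held a weak summit 1747 bp upstream (signal 40.8, rank 8327), whose interval overlapped that of the 1960 bp site. The replicate 1 list held another 1236 bp upstream (25.8), and the replicate 2 list held 2 more, 4939 and 4019 bp upstream (17.3 and 35). The interval of the 4019 bp summit overlapped that of the most distant site.

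cki-2 (II, 7816499 to 7820281, plus strand) is the neighbouring paralogue, with 5 annotated starts within 191 bp. It had no IDR-thresholded summit, and the nearest one lay 7219 bp upstream of its first start, at the cki-1 site 1960 bp from cki-1. The pooled list held 3 summits at cki-2, all below the list median of 60.9. They were 1767 bp upstream (42.1), 1526 bp upstream (46) and 490 bp downstream in a coding exon (49.6), counted from the first start. From the last of the 5 starts the same summits were 1958 and 1717 bp upstream and 299 bp downstream. The 2 upstream summits were 294 and 53 bp from the start of the non-coding T05A6.13. Replicate 1 had 1 summit, 1537 bp upstream (28.5), below its list median of 34.4. Replicate 2 had 3, at 1792 bp upstream (17.8), 828 bp upstream (26.5) and 491 bp downstream (24.6). Its list median was 22.4, and the last 2 were above it. The summit with 26.5 was 178 bp from the start of the non-coding T05A6.19. In the IDR-thresholded list the pair thus differed, with 3 sites for cki-1 and 0 for cki-2.

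cyd-1 (II, 12980591 to 12993117, plus strand) encodes cyclin D, the partner of CDK-4 that blast cells need to leave G1 at L1. It is the longest of the 10 genes, with a body of 12527 bp, and its 2 transcripts start 7632 bp apart. Both IDR-thresholded sites lay inside the gene. The stronger one (II, 12981957 to 12982386) had a pooled signal of 199.9 (rank 848), with 98.3 in replicate 1 and 98.5 in replicate 2. Its summit was 1581 bp downstream of the first start and 6051 bp upstream of the second. It fell in exon 2 of the longer transcript, an untranslated exon of 83 bp (12982126 to 12982208). Of all IDR-thresholded summits, 0.208% were classed as 5′ UTR by the starts of all gene types.

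The second cyd-1 site (II, 12991540 to 12991969) had a pooled signal of 139 (rank 1486), with 66 in replicate 1 and 76.5 in replicate 2. It was 11164 bp downstream of the first start and 3532 bp downstream of the second, in intron 5 of the longer transcript and intron 3 of the shorter, 236 bp before the next exon. By the same rule introns held 11.7% of all IDR-thresholded summits. The pooled list held 5 more summits in the gene, of which the strongest (63.2, rank 4008) was 1996 bp upstream of the second start. That place had 28.7 in replicate 1, below the list median of 34.4, and 32.5 in replicate 2, above the list median of 22.4. The other 4 pooled summits had signals from 42.5 to 46.1, and the interval of the summit with 43.9 overlapped that of the second cyd-1 site. The summit with 46.1 was 32 bp from the start of the non-coding Y38F1A.12. In all, cyd-1 had 8 summits in the replicate 1 list and 11 in the replicate 2 list, the highest numbers of any member. In each of these lists, 3 of them had an interval that overlapped an IDR-thresholded one.

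cdk-4 (X, 13515856 to 13518911, minus strand, 1 start) encodes the kinase partner of cyclin D. It had no IDR-thresholded summit in its window, but it had the strongest site below that list. The pooled summit, 254 bp upstream (X, 13518950 to 13519379), had a signal of 84.3, rank 2851 of 8389 and a −log10 q-value of 1.96. This was under the lowest IDR-thresholded signal of 97.2. Replicate 1 resolved it into 2 summits, 105 and 338 bp upstream, with signals of 43.6 and 38.4. Replicate 2 had 1 summit 254 bp upstream with a signal of 45.1 (rank 2702). All 3 were above their list medians of 34.4 and 22.4. F18H3.1 starts in the opposite direction 498 bp from the pooled summit. The nearest IDR-thresholded summit was 4323 bp away from the cdk-4 start, past the end of the gene and nearest to the start of col-185.

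The S phase kinase genes differed from each other. cye-1 (I, 6780799 to 6784397, plus strand) encodes cyclin E and has 2 starts 7 bp apart. Its IDR-thresholded site (I, 6780039 to 6780468) had a pooled signal of 130.4 (rank 1625), with 54.8 in replicate 1 and 68.6 in replicate 2. The summit was 545 and 552 bp upstream of the cye-1 starts, but only 103 bp upstream of pqn-21, which is transcribed the other way and encodes a glutamine- and asparagine-rich protein. A weak site in intron 2 of cye-1 had a pooled signal of 49.8. Its replicate 1 peak had rank 8004 of 8092 and its replicate 2 peak rank 5931 of 13289, and the pooled summit was 76 bp from the start of a tRNA gene.

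cdk-2 (I, 3410013 to 3416368, plus strand), the kinase partner of cyclin E, had no summit in the IDR-thresholded, pooled or replicate 1 lists. Replicate 2 alone had 2, with signals of 20.9 and 22.2. They lay 1335 and 3382 bp downstream of the first start, which is 1664 bp upstream and 383 bp downstream of the second. The summit with 20.9 was 117 bp from the start of the antisense RNA gene anr-45. The nearest IDR-thresholded summit was 60009 bp away from the first start.

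cya-1 (III, 9106699 to 9109272, minus strand), which encodes a cyclin A, had no IDR-thresholded summit. A weak summit 1250 bp upstream had a pooled signal of 50.2 and a signal of 27.2 in replicate 1, and the nearest replicate 2 summit, 1188 bp upstream, had 23.4. Replicate 2 had another 3632 bp upstream (22.4). cdc-25.1 (I, 6469386 to 6471922, minus strand) encodes a CDC25 phosphatase that removes inhibitory phosphates from cyclin-dependent kinases and acts in the germline and in early intestinal divisions. It had a single summit, in replicate 2, 2205 bp downstream of the start, with a signal of 16.6 and rank 11961 of 13289. The nearest IDR-thresholded summits to the starts of cya-1 and cdc-25.1 were 55220 and 22071 bp away.

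The retinoblastoma and E2F genes both had strong sites close to their starts. lin-35 (I, 5807709 to 5815637, plus strand), the single retinoblastoma family gene of the worm, had an IDR-thresholded site at I, 5807292 to 5807721, with a pooled signal of 208 (rank 798). It had 119 in replicate 1 and 93.2 in replicate 2. The summit was 202 bp upstream of lin-35 and 216 bp upstream of vps-51, which is transcribed the other way and encodes a membrane trafficking protein. In replicate 2 the summit lay 209 bp from the lin-35 start, and there the vps-51 start was equally near. The replicate 2 list held 1 more summit, 1414 bp downstream (17.3), nearer to the start of the nested gene C32F10.4.

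efl-1 (V, 16958590 to 16965675, minus strand) encodes an E2F-family factor that works with LIN-35. Its site (V, 16965788 to 16965898) had the second highest signal among the members, at 310.1 (rank 391), with 182 in replicate 1 and 128 in replicate 2. The interval was 111 bp wide. The summit was 176 bp upstream of the only annotated start, and the F-box gene fbxa-90 starts the other way 963 bp from it. No other summit was found at efl-1 in any of the 4 lists.

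By the usual promoter rule, 1000 bp upstream to 200 bp downstream of a transcript start of the gene, 3 of the 10 genes had an IDR-thresholded summit, namely cye-1, lin-35 and efl-1. Of all protein-coding genes, 8.09% had one. The protein-coding start nearest to an IDR-thresholded summit was that of a member for 4 of the 10 genes, cki-1, cyd-1, lin-35 and efl-1. Of all protein-coding genes, 9.27% were nearest to one. By the starts of all gene types it was 3 members, without cki-1, and the share of all genes was not counted. The promoter sites of cye-1, lin-35 and efl-1 each lay between the gene and a neighbour transcribed the other way.

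**Figure D2:**
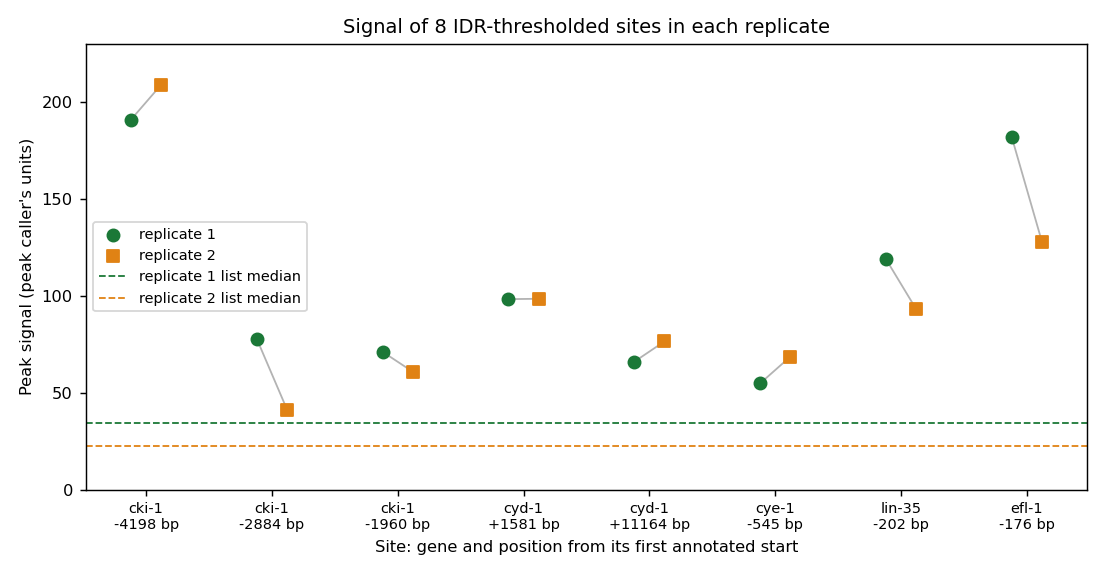
Signal (units of the peak caller) of the 8 IDR-thresholded sites of the cell cycle genes in replicate 1 (circles) and replicate 2 (squares), with the median of each list as a dashed line (34.4 and 22.4). All 16 values lie above the median of their list, but the sites were selected by a threshold on lists that include both replicates. The largest ratio of the replicates is at the cki-1 site 2884 bp upstream (77.7 in replicate 1 and 41.3 in replicate 2). The largest difference in signal is at the efl-1 site (182 and 128).

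The second comparison was between the replicates at these 8 sites. Signal was higher in replicate 1 at 4 of them and higher in replicate 2 at the other 4. The log2 ratio of replicate 1 to replicate 2 had a median of 0.11 and ran from -0.32 at cye-1 to 0.91 at the cki-1 site 2884 bp upstream. Its SD over the 8 sites was 0.42. Over the 2403 IDR-thresholded sites with an overlapping peak in each replicate, the SD was also 0.42, with a median of 0.00. Ratios at least as far from 1 as that of the cki-1 site were found at 4.16% of those sites. In replicate 2 this site had rank 3012, outside the strongest 2404, as did 224 of the 2403. The efl-1 site, 1.42 times higher in replicate 1, was within the spread of the other sites, since 18.1% had as large a ratio. Replicate summits of the member sites were 1 to 61 bp apart (median 13.5 bp), against a median of 18 bp for all.

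**Figure D3:**
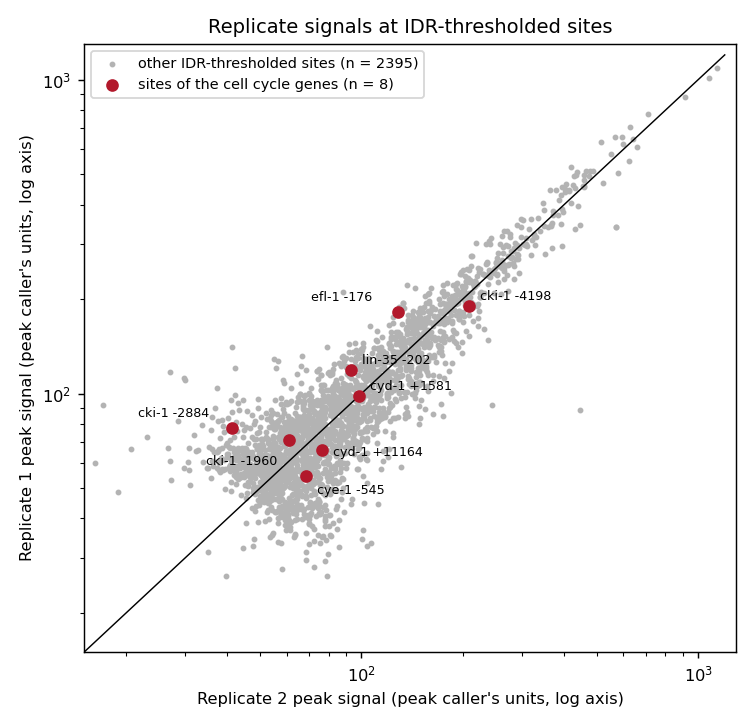
Replicate 1 against replicate 2 peak signal (peak caller's units, log axes) at 2403 IDR-thresholded sites that overlap a peak in each replicate. The line marks equal signal, and the 8 labelled sites of the cell cycle genes lie inside the cloud of the other sites, with the cki-1 site 2884 bp upstream near its edge.

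The third question was what sequence the sites share. The nuclear receptor half-site AGGTCA was in 0 of the 8 windows of 101 bp around the members' summits. It was in 6.53% of the windows of all IDR-thresholded summits and in 2.67% of windows centred 200 bp upstream of each protein-coding start. The E2F-type sequence TTTNNCGC, counted here on both strands like the other motifs, was in 2 of the 8. These were the strongest cki-1 site, 41 bp from the summit, and the cye-1 site, which had 2 matches, 20 and 39 bp from the summit. It was in 9.32% of all summit windows and 6.85% of promoter windows. The repeat GAGAGA was in 3 of the 8, against 25.5% of all summit windows and 7.47% of promoter windows. They were the cki-1 site 1960 bp upstream, the intronic cyd-1 site and the cye-1 site. The GATA-type sequence TGATAA was in 0 of the 8, 8.49% of all summit windows and 11% of promoter windows. No match of one motif overlapped a match of another at these sites. A match is a description of the letters and not a site, and no match says only that these letters are missing from this window. In windows of 201 bp the counts were larger. AGGTCA was then in 1 of the 8 (11.1% of all summit windows and 5.5% of promoter windows), TTTNNCGC in 5 (19.1% and 13.6%) and GAGAGA in 5 (40.7% and 14.2%). In the 101 bp windows the share of G and C ran from 32.7% at the cki-1 site 2884 bp upstream to 58.4% at the cye-1 site, and the median of all summits was 44.6%.

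The fourth question was whether other genes of the cell cycle had sites. From 4 lists of such genes, 44 were found by name and cdc-45 was not. Of the 44, 15 had an IDR-thresholded summit in the gene body or the 5000 bp upstream, against 16.9% of all protein-coding genes. For 10 of the 15, the strongest such summit was nearest to the start of the gene itself.

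The list named Rb and E2F complex partners, which includes efl-2, efl-3 and lin-15B, had a summit at 5 of 9 genes. The share of all protein-coding genes was 16.9%. The lin-54 site had a pooled signal of 587 (290.4 in replicate 1 and 294 in replicate 2) and lay 363 bp upstream of lin-54, a DNA-binding subunit of the DREAM complex, but 30 bp from the start of the ribosomal protein gene rpl-12. The lin-53 site, 231 bp upstream of this histone-binding protein gene, had a signal of 342, with 174 in replicate 1 and 166 in replicate 2. The lin-9 site, 172 bp upstream of this DREAM subunit gene, had 321, with 183 in replicate 1 and 143 in replicate 2. The lin-15B site, 908 bp upstream, had 144. The fifth, efl-3, had the weakest signal (102), and its summit was nearer to the start of sra-13; efl-3 is named here after its value was seen. dpl-1, the dimerization partner of EFL-1, had no summit in the IDR-thresholded, pooled or replicate 1 lists and 1 of 22.1 in replicate 2. lin-52 had a pooled signal of 97, just under the lowest IDR-thresholded signal of 97.2. These 2 genes are also named after their values were seen.

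DNA replication genes had a summit at 4 of 15, against 16.9% of all protein-coding genes. The strongest was at pcn-1, the sliding clamp gene PCNA, 301 bp upstream, with a signal of 486 (245 in replicate 1 and 241 in replicate 2). The cdc-6 site, 267 bp upstream of this licensing factor gene, had 222 and was 112 bp from the start of acin-1. The orc-2 window held a site of 439 that was 4979 bp upstream and 232 bp from the start of gmps-1. The mcm-4 site, 158 bp upstream of this helicase subunit gene, had 120.3.

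Ubiquitin ligase genes had a summit at 4 of 9, against 16.9% of all protein-coding genes. They were fzr-1 (178), an activator of the anaphase-promoting complex whose strongest summit was nearer to sqv-8, lin-23 (174), an F-box gene that restrains blast cell division, cul-4 (151) and sel-10 (147). The fzr-1 window held 3 IDR-thresholded summits. Mitotic cyclin, kinase and phosphatase genes had a summit at 2 of 11, close to the share of 16.9% of all protein-coding genes. These were wee-1.3 (161, 366 bp upstream), an inhibitory kinase of CDK-1, and cdc-14 (119.5, 359 bp upstream), a phosphatase that holds cells in G1. The cdc-14 site had 37.9 in replicate 1 and 78 in replicate 2.

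**Figure D4:**
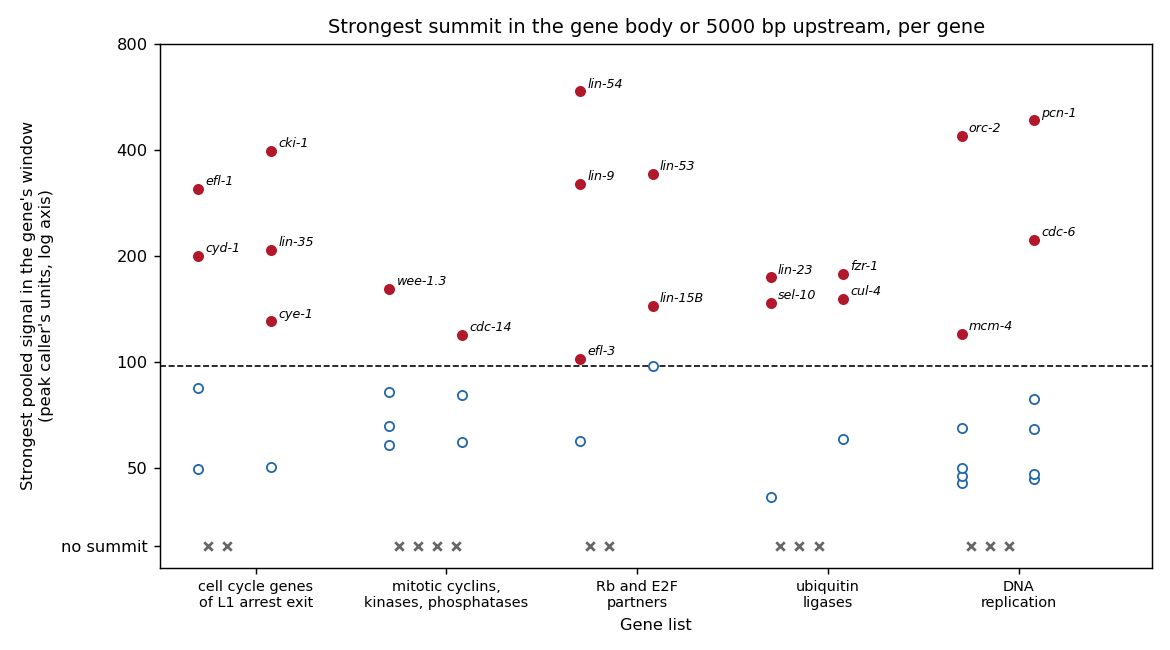
Strongest pooled signal (peak caller's units, log axis) in the gene body or 5000 bp upstream of each gene, for the 10 cell cycle genes and the 44 genes of 4 further lists. Filled circles are at or above the lowest IDR-thresholded signal of 97.2 (dashed line), open circles below it, and crosses mark genes with no pooled summit; 5 of 10, 2 of 11, 5 of 9, 4 of 9 and 4 of 15 genes are above the line, from left to right.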

How the data were processed

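The 2 biological replicates of 1 group were used. Per the deposited file descriptions, the authors called peaks for each replicate and on the pooled alignments of both, against a control alignment, on ce11, and made the IDR-thresholded list from these 3 lists. Each deposited peak carries a signal value and a −log10 q-value from the authors, and how either was computed is not stated. Aligner, peak caller, versions and cutoffs: not given in the sources used here. Whether the deposited signal is normalized to depth is not stated either. The lists hold no read counts, so depth is unknown. Both values are the authors' own, and they served to describe, rank or filter the peaks of a list. The ce10 lists were not used here.

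Duplicate intervals were reduced to the stronger line, and 1 summit past its interval's end was set to the end. Gene models were those of Ensembl release 115 (WBcel235, the ce11 assembly). Every peak lay within the chromosome lengths of the RefSeq copy, from which sequence was read. Python 3.11.15 and pandas 2.3.3 were used. A peak of a replicate was matched to a site by at least 1 bp of overlap, taking the nearest summit. A summit with several features took the first of promoter, 5′ UTR, coding exon, 3′ UTR, non-coding exon, intron and intergenic sequence.

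The members and lists were chosen with earlier results of these data known. All 10 members were named, with the nearest gene to each of their IDR-thresholded summits and up to 4 genes with the strongest site from each further list. With 1 group and 2 replicates no test was possible. The window counts were tested on planted summits. Alternatives covered the peak list, the window, the position rule, the starts considered, the matching of sites and the motif window.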

Additional observations from a re-analysis of the deposited data

How the results depend on the processing

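No paired analysis was possible because the 2 replicates form 1 group. With the strongest 2404 peaks of a single replicate, leaving out the other, the members with a summit were 5 and 5, their summits 7 to 8, the members nearest to a summit 3 to 4, the members with a promoter summit 3 and 3, and the other cell cycle genes 14 to 16. Without replicate 1 and without replicate 2, 16.8% and 16.7% of all protein-coding genes had a summit. The shares nearest to a summit were 9.2% and 9.31%, and those with a promoter summit 7.98% and 8.04%. The full lists hold more peaks, so more genes were found. In the pooled list these counts were 8, 20, 8, 5 and 32, in the full replicate 1 list 8, 20, 8, 5 and 30, and in the full replicate 2 list 10, 30, 8, 6 and 38, against 5, 8, 4, 3 and 15. Over all protein-coding genes, the shares nearest to a summit were 25.9%, 25.9% and 37% in the pooled, replicate 1 and replicate 2 lists, and the shares with a promoter summit 19.4%, 18% and 25.7%. In the stronger 1202 of the IDR-thresholded peaks, 4 member summits and 8 other cell cycle genes were left, and cye-1 dropped out of the members, while 9.45% of all genes had a summit. With 1000 bp upstream, 5 member summits were left, none of them at cki-1, and 9.34% of all genes had one. With motif windows of 100 bp to each side, AGGTCA was in 1, TTTNNCGC in 5 and GAGAGA in 5 of the 8, against 11.1%, 19.1% and 40.7% of all summit windows. TGATAA stayed at 0. The median log2 ratio of the replicates was 0.18 with ranks in place of signals and 0.11 with summits within 100 bp. Depth is unknown, so weak summits found in 1 replicate cannot be weighed by it.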
